A study of Mus musculus with 9 samples.

Results

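The genes described here are the enzymes of sterol and fatty acid synthesis and the proteins that sense sterols and switch these enzymes on, measured by RNA sequencing in BV2 cells, an immortalized line of mouse microglia. They were chosen by name for their place in the pathway, at a time when earlier results of these data were known: 18 enzymes of sterol synthesis, 3 enzymes that supply acyl-CoA, 8 enzymes that build, lengthen or desaturate fatty acids, and 6 regulators and carriers. All 35 were found by symbol among the 54532 genes of the deposited table, and 33 of them were abundant enough to be tested. The libraries formed 3 groups of 3: control cells in complete medium with 10% serum, cells under oxygen-glucose deprivation (OGD) in low-glucose medium with 4% serum at 4% oxygen, and cells under the same OGD with A-485, which blocks the histone acetyltransferase P300. Oxygen, glucose and serum were changed together and cannot be told apart. No library had A-485 without OGD. A 24 h treatment and a dose of 50 µM A-485 are stated for earlier experiments of the study and not for the sequenced cells, and the vehicle is not stated.

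Cells make cholesterol from acetyl-CoA. Acetyl-CoA is condensed to the mevalonate precursor, mevalonate is turned into isoprenoid units, these are joined into squalene, squalene is closed to lanosterol, and a last series of enzymes trims lanosterol to cholesterol. Most of these genes, and those for the making of fatty acids, are switched on by the SREBP transcription factors, which are held in the endoplasmic reticulum by Scap and the Insig proteins when sterols are plentiful and are released when sterols run low. In microglia, as in other macrophages, sterols also come from debris and lipoproteins that the cells take up.

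The libraries held between 12593250 and 16091038 reads on genes, and 1 read on a gene of 1 kb was worth 0.0618 to 0.0786 FPKM (fragments scaled to gene length and depth). All 10 macrophage and microglia markers exceeded a mean of 1 FPKM over all libraries. Aif1 did so only through the libraries with A-485, with means of 0.613 FPKM in control, 0.889 FPKM under OGD and 2.57 FPKM with A-485. No neuron, astrocyte or fibroblast marker passed the filter for testing. The 4 oligodendrocyte markers summed to 1.02 to 2.36 FPKM, with Mog at 0 in every library. The summed FPKM of the 10 macrophage markers ranged from 570 to 590 in control, from 677 to 709 under OGD and from 1301 to 1337 with A-485, and their part in the differences below was not tested. The markers did not all rise under OGD. Against control 4 of the 10 were called higher and none lower (11.2% and 9.81% of all genes tested). All 3 OGD libraries lay above control for 6 markers and below it for 2, Spi1 and Adgre1 (28.0% and 27.5% of all genes). Of the 10 hypoxia genes listed, 9 were called higher under OGD than in control, against 11.2% of all genes tested. Nothing in the labels says that the libraries came from separate cultures, so p-values measure the spread between these libraries, which may be technical.

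SREBPs are known to bind sterol regulatory elements near the start of their targets, often beside CCAAT, which NF-Y binds, or a GC box, which Sp1 binds. Promoter entries of RefSeq (build GRCm38.p6) were matched by symbol for 28 of the 35 genes, and there was no entry for Fads1, Fdft1, Fdps, Scd1, Scd2, Sqle and Stard4. In the 250 bases before the start, on either strand, the letters TCACNCCAC, one form of the sterol regulatory element, occurred in 1 of the 28 genes (3.57%), which was Hmgcs1, against 1.22% of 27025 genes with an entry. CCAAT occurred in 21 of 28 (75.0%) against 37.5% of all genes and 40.4% of the 9751 genes that were also tested here. It occurred in 14 of the 15 sterol enzymes with an entry. GGGCGG, a GC box, occurred in 22 of 28 (78.6%) against 35.4% of all genes and 61.7% of the 9751 genes that were also tested here. It too occurred in 14 of the 15 sterol enzymes with an entry. A match is only a run of letters in this window. A gene with several listed starts was counted if any of them had a match, and the stretch shown for Insig2 is at its first listed start. Hmgcs1 is shown as the gene with the sterol element, and Nsdhl, Fasn, Insig1 and Insig2 were picked after their values had been seen, because they stand for the different patterns described below. The stretches lie at chr13:119690101-119690325 (plus strand, Hmgcs1), chrX:72918397-72918520 (plus, Nsdhl), chr11:120824587-120824652 (minus, Fasn), chr5:28071181-28071215 (plus, Insig1) and chr1:121332599-121332740 (minus, Insig2). They are written 5′ to 3′ on the strand of the gene, all before the start, with TCACNCCAC and CCAAT in capitals (ATTGG where the match is on the other strand; in Fasn, matches on both strands overlap).
Hmgcs1: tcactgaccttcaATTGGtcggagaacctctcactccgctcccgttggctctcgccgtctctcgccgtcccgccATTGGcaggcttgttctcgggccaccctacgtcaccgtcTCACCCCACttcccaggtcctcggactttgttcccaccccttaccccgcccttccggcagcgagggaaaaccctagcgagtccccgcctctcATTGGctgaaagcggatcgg
Nsdhl: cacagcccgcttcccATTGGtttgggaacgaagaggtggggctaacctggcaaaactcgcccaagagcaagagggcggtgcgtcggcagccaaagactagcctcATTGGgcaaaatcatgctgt
Fasn: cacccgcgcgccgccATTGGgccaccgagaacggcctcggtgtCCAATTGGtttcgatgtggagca
Insig1: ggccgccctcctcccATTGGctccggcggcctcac
Insig2: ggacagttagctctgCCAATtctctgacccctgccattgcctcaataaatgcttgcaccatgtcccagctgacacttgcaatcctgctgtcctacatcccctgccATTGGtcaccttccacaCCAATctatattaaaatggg

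To see what deprivation did to these genes, OGD was compared with control. Of the 6 tested enzymes of fatty acid synthesis, all lay below control in all 3 libraries, and 3 were called lower, Elovl6, Fasn and Acaca. Of the 18 enzymes of sterol synthesis, 9 lay below control in all 3 libraries, and 4 were called lower, Acat2, Idi1, Dhcr7 and Cyp51. The sterol sensors split, since Insig1 fell and Insig2 rose. A gene was called where limma's unadjusted p was under 0.01 and its log2 fold change exceeded 0.5 in size, with fold changes on the scale of log2(FPKM + 0.1), which understates changes of low genes. Of the 33 genes 1 was called higher and 8 lower, against 11.2% and 9.81% of all 16123 genes tested. Their median log2 fold change was -0.31, and that of all genes tested was 0.01. At an adjusted p under 0.05 from limma without a size threshold, 2 were higher and 17 lower, against 22.5% and 22.8% of all genes. All 3 OGD libraries lay above all control libraries for 4 genes and below them for 18, against 28.0% and 27.5% of all genes.

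To see what A-485 added, OGD + A-485 was compared with OGD. No gene of the 33 was called higher and 21 were called lower, against 12.2% and 13.4% of all genes tested. Here the sterol branch carried most of the calls, with 14 of 18 enzymes lower (log2 fold changes of -2.03 to -0.66), and 5 of the 6 regulators and carriers were lower as well. In fatty acid synthesis 2 of 6 were called lower, and Fasn lay above its OGD level. No supply enzyme was called. The median over the 33 genes was -0.66, beside 0.01 over all genes tested. At an adjusted p under 0.05 from limma, 2 were higher (25.1% of all genes) and 28 lower (24.7%), and the libraries stood apart for 4 genes above OGD (28.5%) and 27 below (28.3%). Against control, OGD + A-485 had no gene called higher and 26 lower, against 17.0% and 16.6% of all genes, with a median of -1.07. At an adjusted p under 0.05 1 was higher (28.2% of all genes) and 27 lower (28.4%), and 1 gene stood above all control libraries (31.8%) and 28 below (32.0%). The comparisons share libraries, so they are not independent of each other.

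**Figure D1:**
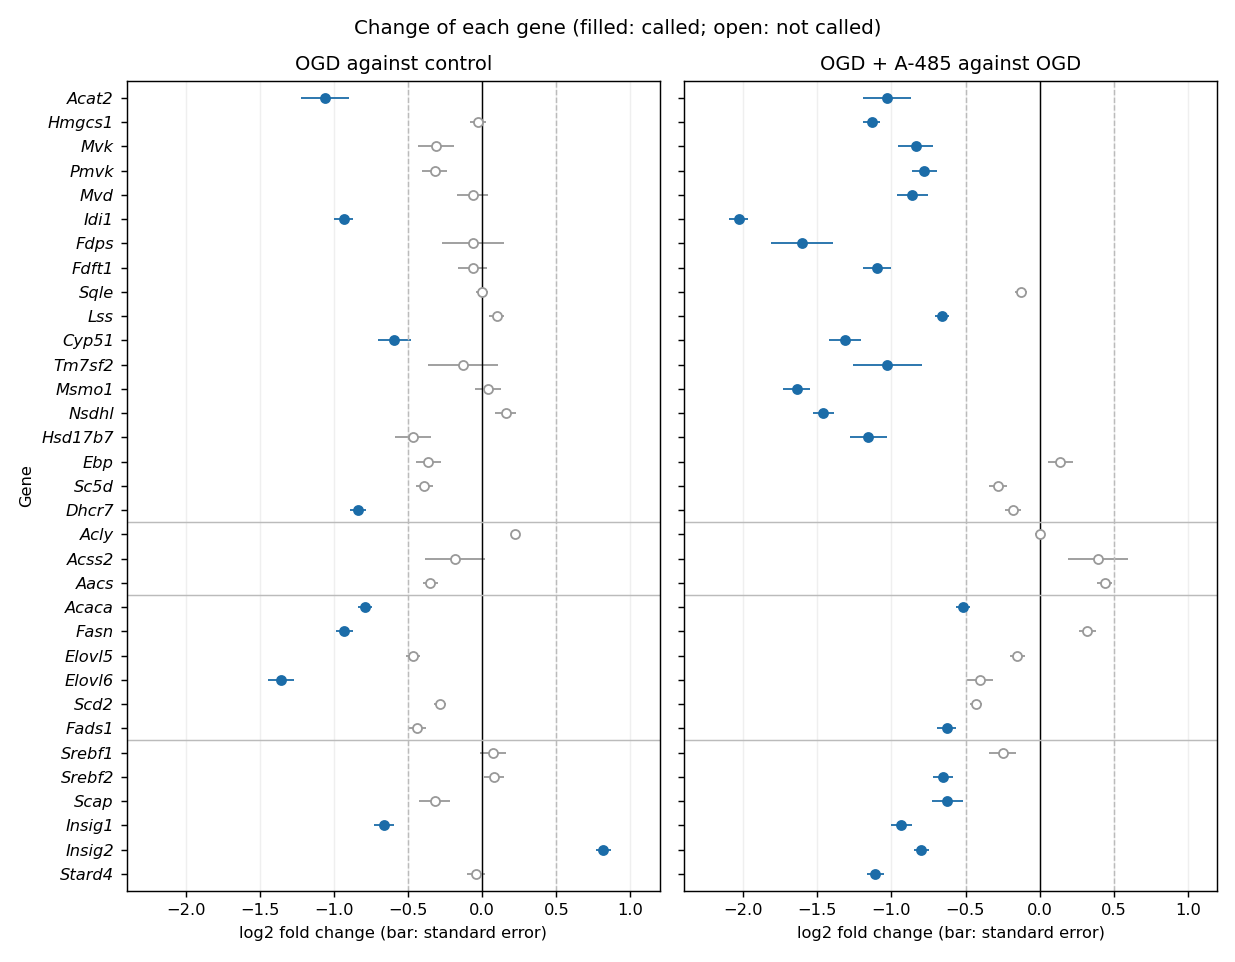
Log2 fold change of each of the 33 tested genes (x axis, on the scale of log2(FPKM + 0.1), bars are standard errors from limma) under OGD against control on the left and OGD + A-485 against OGD on the right, filled where called and open where not, dashed lines at the size threshold of 0.5. On the left 8 genes are filled below 0 and 1, Insig2, above; on the right 21 are filled, all below 0, and Sqle, Ebp, Sc5d and Dhcr7 are the open points of the sterol branch.

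At the entry to sterol synthesis, Acat2, the cytosolic thiolase that joins the first acetyl units, stood at 19.9, 23.2 and 21.3 FPKM in the control libraries, at 10.7, 9.09 and 11.01 FPKM under OGD and at 5.17, 6.25 and 3.76 FPKM with A-485. The groups did not overlap, and 47.8% of the control mean was left under OGD and 49.3% of the OGD mean with A-485. Acat2 fell by 1.06 on the log2 scale under OGD (SE 0.16, adjusted p = 0.000731 from limma) and by a further 1.03 with A-485 (adjusted p = 0.000739). Hmgcs1, the synthase that makes HMG-CoA, read 13.2, 14.1 and 12.9 FPKM in control, 12.9, 13.8 and 12.6 FPKM under OGD and 6.09, 5.98 and 5.71 FPKM with A-485. Its control and OGD libraries overlapped (log2 difference -0.03, adjusted p = 0.714), whereas with A-485 it fell by 1.13 (SE 0.06, adjusted p = 7.50e-07 from limma). The 50 nearest genes on chromosome 13 had a median log2 fold change of -0.41 with A-485, and Hmgcs1 was still called with that median taken off.

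The 5 enzymes that turn mevalonate into farnesyl diphosphate all fell with A-485. Idi1, the isomerase that makes both isoprenoid units available (chr13:8885501-8892451, plus strand, GRCm38), had the largest change of all 35 genes. It read 18.4, 18.02 and 20.6 FPKM in control, 9.66, 10.1 and 9.92 FPKM under OGD and 2.27, 2.47 and 2.30 FPKM with A-485. The 3 groups stood clear of each other, and the OGD + A-485 mean was 12.3% of the control mean. Idi1 fell by 0.94 under OGD (SE 0.06, adjusted p = 7.18e-06 from limma) and then with A-485 it fell by 2.03 (adjusted p = 7.46e-08), beside a median of -0.31 for its 50 nearest genes.

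Mvk and Pmvk, the kinases that phosphorylate mevalonate, lay below control in all 3 OGD libraries, at 80.4% and 80.0% of the control mean, and neither was called (-0.31, adjusted p = 0.0620, and -0.32, adjusted p = 0.0127, from limma). With A-485 Mvk fell by 0.84 (SE 0.12) and Pmvk by 0.78 (SE 0.08), to means of 1.88 ± 0.12 and 7.25 ± 0.63 FPKM (SD, n = 3). Mvd, the decarboxylase that follows, was among the most abundant enzymes of the branch, with 23.99 ± 1.004 FPKM in control and 23.0 ± 2.23 FPKM under OGD. It fell to 12.7 ± 1.83 FPKM with A-485 (log2 fold change -0.86, adjusted p = 0.000160 from limma). The gene Gm20388 on the opposite strand covers the whole of Mvd and is listed at 0 FPKM in every library.

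Fdps, which makes farnesyl diphosphate, was read at 0.925, 0.867 and 0.939 FPKM in control, 0.840, 0.840 and 0.929 FPKM under OGD and 0.309, 0.181 and 0.181 FPKM with A-485. All 3 libraries with A-485 lay below the others, and Fdps fell by 1.61 against OGD (SE 0.21, adjusted p = 0.000229 from limma). These values are uncertain, because only 11 to 19 reads per library stood behind the lowest group and the gene Gm43738 on the same strand overlaps 89.7% of Fdps.

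Between farnesyl diphosphate and lanosterol, the enzymes parted. Fdft1, which makes squalene, had 11.8 ± 0.12 FPKM in control, 11.3 ± 0.51 FPKM under OGD and 5.24 ± 0.77 FPKM with A-485, a fall by 1.10 against OGD (SE 0.10, adjusted p = 2.19e-05 from limma). Fdft1 shares 774 bases with Ctsb on the opposite strand, a gene with a mean of 336 FPKM, and whether the counting used strand is not stated. Lss, which closes squalene epoxide to lanosterol, read 6.30, 6.34 and 6.21 FPKM in control, 6.53, 6.69 and 6.98 FPKM under OGD and 4.27, 4.22 and 4.19 FPKM with A-485, where it fell by 0.66 (SE 0.05).

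Sqle, the squalene epoxidase between them and a rate-limiting enzyme of the pathway, kept apart from this pattern. It read 24.5, 22.9 and 23.9 FPKM in control, 23.6, 23.7 and 23.9 FPKM under OGD and 22.6, 21.4 and 21.4 FPKM with A-485. The control and OGD libraries overlapped, and the libraries with A-485 lay just below both. The log2 difference was -0.12 with A-485 (SE 0.04, adjusted p = 0.0278 from limma), under the size threshold, on 1668 to 2147 reads per library. Sqle made up 11.3 ± 0.46% of the summed FPKM of the 18 sterol enzymes in control, 13.8 ± 0.28% under OGD and 22.5 ± 0.96% with A-485.

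Of the 8 enzymes that turn lanosterol into cholesterol, 5 were called lower with A-485 against OGD and 3 were not called. Those 3 act late in the series. At an adjusted p under 0.05 from limma without a size threshold, 7 of the 8 were lower. Cyp51, the demethylase that opens it, read 11.1, 11.2 and 12.5 FPKM in control, 8.49, 7.53 and 6.96 FPKM under OGD and 3.35, 3.15 and 2.58 FPKM with A-485. It fell in both steps, by 0.59 (SE 0.11, adjusted p = 0.00205 from limma) and by 1.31 (adjusted p = 1.52e-05). Its groups were again separate, and 26.1% of the control level was left with A-485.

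Msmo1, the oxidase that starts the removal of the methyl pair, read 18.5, 16.6 and 18.9 FPKM in control, 18.7, 19.7 and 17.0 FPKM under OGD and 6.03, 6.38 and 5.22 FPKM with A-485. Nsdhl, the dehydrogenase of the same step, read 8.26, 8.68 and 9.29 FPKM in control, 9.58, 10.2 and 9.54 FPKM under OGD and 3.38, 3.28 and 3.82 FPKM with A-485. The OGD means of both were slightly above control, and neither was called there (0.04 and 0.16), and both fell with A-485, Msmo1 by 1.64 (SE 0.09, adjusted p = 1.26e-06 from limma) and Nsdhl by 1.46 (SE 0.07, adjusted p = 7.95e-07). Hsd17b7, the ketoreductase that completes the step, fell by 1.16 with A-485 (SE 0.12), from 2.26 ± 0.25 to 0.958 ± 0.12 FPKM. Under OGD its difference from control was -0.47, not called, and it passes the size threshold without OGD replicate 2 (-0.53). Tm7sf2, a sterol reductase, fell by 1.03 with A-485 (SE 0.23), from 0.581 ± 0.10 to 0.232 ± 0.04 FPKM. Only 17 to 21 reads per library stood behind the lowest group, and Tm7sf2 shares 65.1% of its span with Vps51 on the same strand, so its values are uncertain.

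The last enzymes changed less with A-485. Dhcr7, the reductase of the final step by one route, read 10.6, 11.6 and 11.1 FPKM in control, 6.44, 5.99 and 6.05 FPKM under OGD and 5.54, 5.23 and 5.51 FPKM with A-485. It fell by 0.84 under OGD (SE 0.06, adjusted p = 6.28e-06 from limma), and A-485 left it little below that level (-0.18, adjusted p = 0.0241, not called). Against control, Dhcr7 was called lower with both treatments (-1.02, adjusted p = 6.90e-07 from limma). Sc5d, the desaturase before it, followed the same order with 12.7 ± 0.24, 9.62 ± 0.20 and 7.91 ± 0.59 FPKM. It was not called in either step (-0.39, adjusted p = 0.000567, and -0.28, adjusted p = 0.00327, from limma). With both treatments Sc5d was called lower than in control (-0.67, adjusted p = 1.16e-05 from limma). Ebp, the isomerase before Sc5d, had 4.02 ± 0.23 FPKM in control, 3.10 ± 0.24 FPKM under OGD and 3.43 ± 0.19 FPKM with A-485, and was the 1 sterol enzyme above its OGD level with A-485 (0.14, adjusted p = 0.206).

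**Figure D2:**
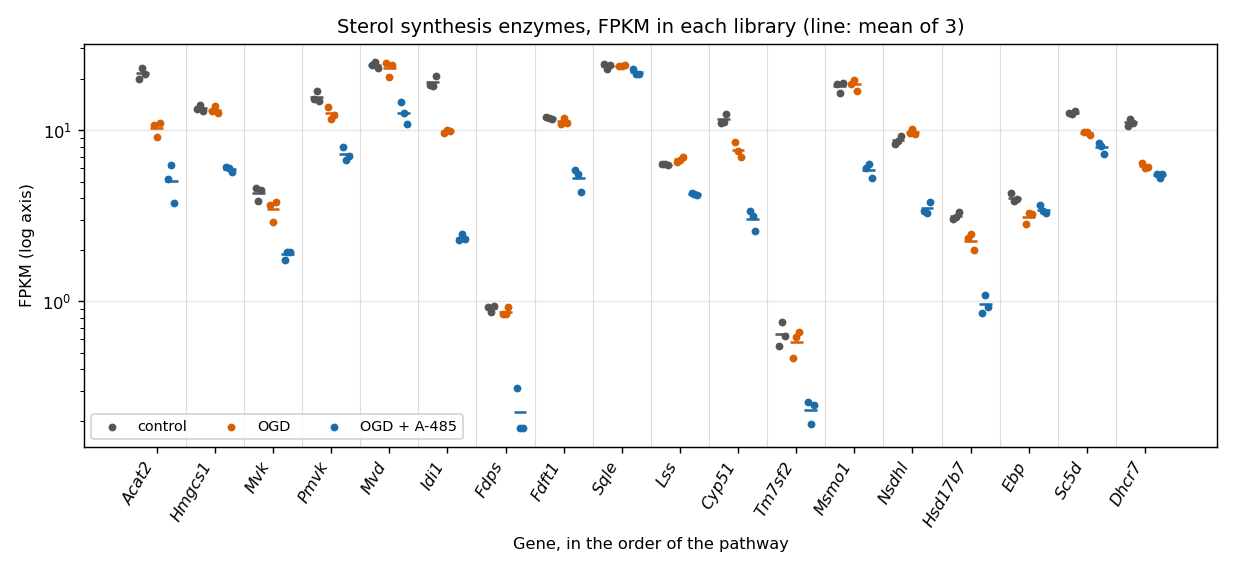
FPKM (y axis, log scale) of the 18 sterol enzymes (x axis, in pathway order) in each library, with lines at the mean of 3. The libraries with A-485 (blue) lie clear below the OGD libraries for most enzymes, by the widest gap for Idi1. Sqle stays between 21.4 and 24.5 FPKM in all groups, and Ebp, Sc5d and Dhcr7 change less from OGD to OGD + A-485.

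Summed over the 18 enzymes, FPKM came to 210 ± 2.21 in control, 172 ± 2.74 under OGD and 97.0 ± 5.89 with A-485 (SD, n = 3), with no overlap between groups. The order of levels changed with it. In control Mvd (23.99 FPKM) and Sqle (23.8 FPKM) led and did not differ beyond their spread, followed by Acat2 (21.5 FPKM) and Idi1 (19.0 FPKM). With A-485, Sqle stood alone at 21.8 FPKM, ahead of Mvd at 12.7 FPKM and Sc5d at 7.91 FPKM, and Idi1 had moved from rank 4 to rank 14. The part of Idi1 in the sum went from 9.03 ± 0.60% in control to 5.73 ± 0.21% under OGD and 2.42 ± 0.18% with A-485.

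In fatty acid synthesis, the first enzymes fell under OGD and then took different courses. Acaca, the carboxylase that makes malonyl-CoA, read 12.5, 12.7 and 12.3 FPKM in control, 7.01, 7.26 and 7.31 FPKM under OGD and 5.19, 4.97 and 4.82 FPKM with A-485. It fell by 0.79 under OGD (SE 0.05, adjusted p = 3.84e-06 from limma) and by 0.52 with A-485 (adjusted p = 2.57e-05), a step so near the size threshold that it is not called without OGD + A-485 replicate 3 (-0.49). Fasn, the synthase that builds palmitate from malonyl-CoA, read 49.0, 50.2 and 50.2 FPKM in control, 26.3, 24.1 and 27.9 FPKM under OGD and 34.7, 31.2 and 32.0 FPKM with A-485. Fasn fell by 0.93 under OGD (SE 0.06, adjusted p = 5.03e-06) and lay between its OGD and control libraries with A-485, without overlap (0.32 above OGD, adjusted p = 0.00167 from limma, not called). The ratio of Acaca to Fasn FPKM, chosen after the values had been seen, was 0.251 ± 0.005 in control, 0.276 ± 0.021 under OGD and 0.153 ± 0.005 with A-485.

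Elovl6, the elongase of palmitate, had the largest fall of any of the genes under OGD. It read 12.5, 11.6 and 13.2 FPKM in control, 4.83, 5.02 and 4.55 FPKM under OGD and 3.72, 3.20 and 3.94 FPKM with A-485. The fall under OGD was by 1.36 (SE 0.09, adjusted p = 5.34e-06 from limma), and the further difference of -0.40 with A-485 was not called. Elovl5, the elongase of polyunsaturated chains, had 38.1 ± 0.85, 27.5 ± 1.51 and 24.8 ± 0.85 FPKM in the same order, with -0.47 under OGD and -0.15 with A-485, neither called. Its 50 nearest genes had a median of -0.37 with A-485, and with that median taken off the A-485 difference turns to 0.21 (adjusted p = 0.00700 from limma, not called). Without OGD replicate 2 the OGD difference of Elovl5 reaches -0.51 and is called.

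Among the desaturases, Scd2 was the most abundant of all 35 genes, at 163, 161 and 163 FPKM in control, 137, 135 and 128 FPKM under OGD and 104, 96.3 and 97.1 FPKM with A-485. It puts the double bond into stearate and palmitate. Its groups did not overlap, but neither step passed the size threshold (-0.29 and -0.43), and only the comparison of OGD + A-485 with control was called (-0.71, SE 0.04, adjusted p = 1.03e-06 from limma). The 50 nearest genes of Scd2 had a median of -0.45 in that comparison. With that median taken off, Scd2 is no longer called (-0.26). Scd1, the isoform that prevails in liver, was represented by 0 to 3 reads per library and was not tested. Fads1, the desaturase of polyunsaturated chains that acts after Fads2, had 28.8 ± 0.88 FPKM in control, 21.2 ± 0.81 FPKM under OGD (-0.44, not called) and 13.7 ± 1.14 FPKM with A-485, where it fell by 0.63 (SE 0.06, adjusted p = 4.63e-05). Fads2 had 0 reads in all 9 libraries, which allows at most 0.123 to 0.156 FPKM at 3 reads per library (counting error only).

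Of the 3 enzymes that supply acyl-CoA none was called in any of the 3 comparisons. Acly, which splits citrate into acetyl-CoA, read 68.4, 70.8 and 70.4 FPKM in control, 82.2, 79.9 and 82.5 FPKM under OGD and 83.1, 80.5 and 81.3 FPKM with A-485. Both deprived groups lay above control and overlapped each other (0.22 under OGD, adjusted p = 0.000456 from limma, not called; 0.00 with A-485). Aacs, which activates acetoacetate, read 14.2, 13.5 and 14.3 FPKM in control, 10.9, 10.5 and 11.5 FPKM under OGD and 14.9, 14.3 and 15.6 FPKM with A-485. It was thus low under OGD alone (-0.35, adjusted p = 0.000512) and back at control levels with A-485 (0.44 above OGD, adjusted p = 0.000109), under the size threshold both times. Acss2, which activates acetate, stayed between 0.410 and 0.788 FPKM, was not called, and overlaps Gss on the opposite strand over 33.3% of its span.

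**Figure D3:**
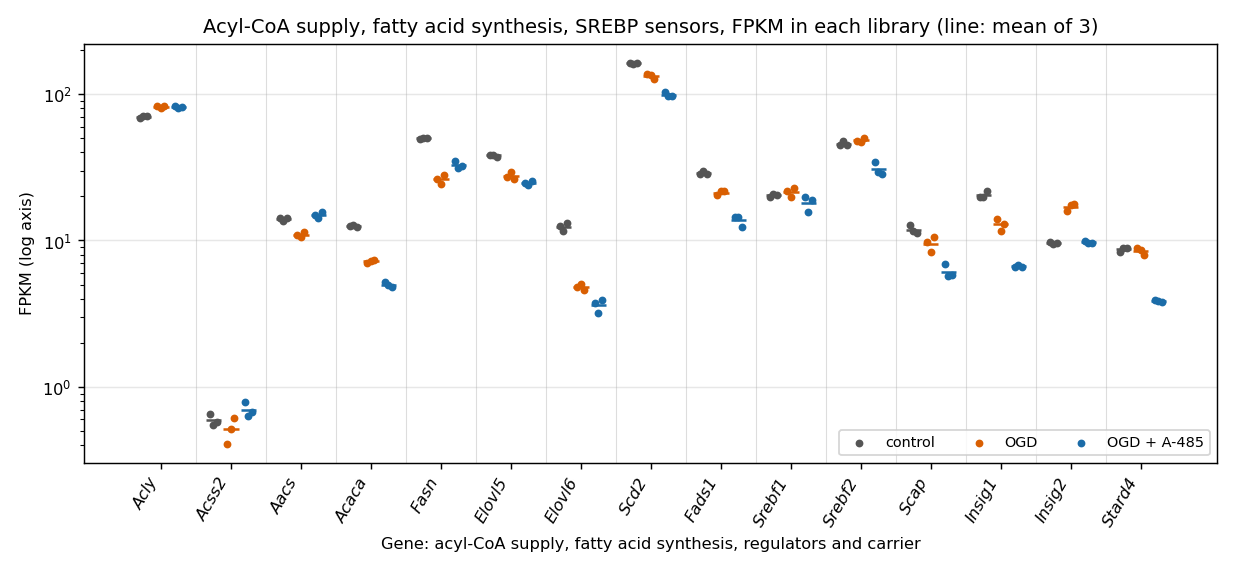
FPKM (y axis, log scale) of the supply enzymes, the 6 tested fatty acid enzymes, the SREBP genes with their sensors and Stard4 (x axis) in each library, with lines at the mean of 3. Elovl6, Fasn and Acaca drop from control (grey) to OGD (orange), Fasn and Aacs lie higher with A-485 (blue) than under OGD, and Insig2 is highest under OGD.

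The branches are set side by side by their counts and medians. The median log2 fold change under OGD was -0.22 over the 18 sterol enzymes (4 called lower, 8 lower at an adjusted p under 0.05) and -0.63 over the 6 tested fatty acid enzymes (3 called lower, all 6 lower at an adjusted p under 0.05). With A-485 against OGD it was -1.03 over the sterol enzymes (14 called lower, 17 lower at an adjusted p under 0.05) and -0.41 over the fatty acid enzymes (2 called lower, 5 lower and Fasn higher at an adjusted p under 0.05). Against control, with both treatments, the branches came to -1.16 (16 of 18 called lower) and -0.89 (6 of 6 called lower). Of these 6, Scd2 (-0.26) and Elovl5 (-0.11) are no longer called with the median of their 50 nearest genes taken off. The supply enzymes had medians of -0.18, 0.39 and 0.21 in the same order. In single libraries, the sterol median relative to the control mean lay between -0.26 and -0.13 under OGD and between -1.18 and -1.09 with A-485, and the fatty acid median between -0.67 and -0.59 and between -0.97 and -0.82. Genes of a branch share the libraries and are not replicates, so the difference between the branches was not tested.

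**Figure D4:**
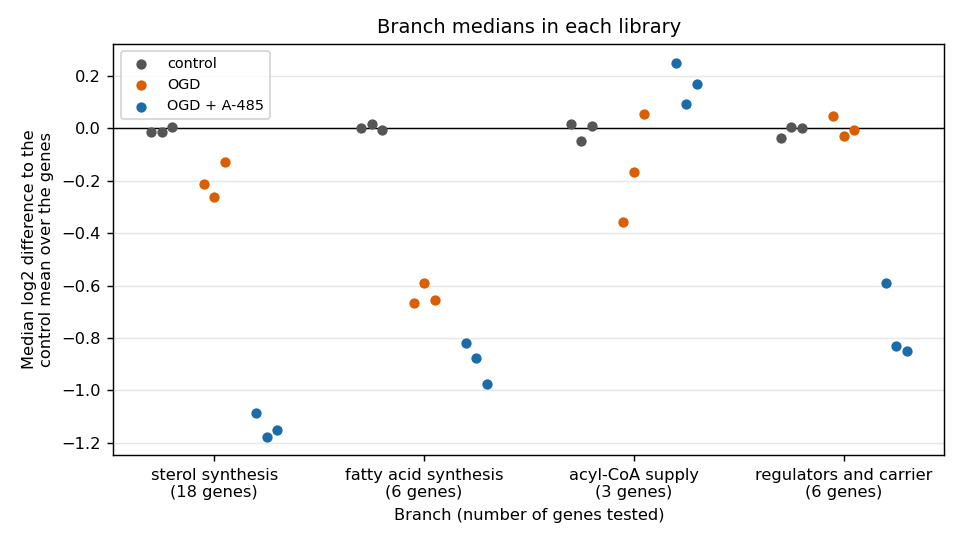
Median log2 difference to the control mean (y axis) over the tested genes of each branch (x axis, number of genes in brackets), 1 point per library. For sterol synthesis the gap from OGD (orange) to OGD + A-485 (blue) is wider than that from control (grey) to OGD, and for fatty acid synthesis the gap from control to OGD is the wider one.

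Of the genes for the transcription factors themselves, Srebf2 fell with A-485 and Srebf1 was not called. Srebf2, which encodes the SREBP that mainly serves sterol synthesis, read 44.6, 47.8 and 44.7 FPKM in control, 47.9, 47.1 and 49.8 FPKM under OGD and 34.3, 29.5 and 28.6 FPKM with A-485. Its control and OGD libraries overlapped (0.08, adjusted p = 0.386), and it fell by 0.65 with A-485 (SE 0.07, adjusted p = 5.72e-05 from limma). Srebf1, whose products mainly serve fatty acid synthesis, read 19.8, 20.8 and 20.6 FPKM in control, 21.7, 19.8 and 22.95 FPKM under OGD and 19.96, 15.6 and 18.8 FPKM with A-485. Its groups overlapped and it was called in none of the 3 comparisons. The differences in the 2 steps were 0.07 (adjusted p = 0.563) and -0.25 (adjusted p = 0.0472, both from limma). The table gives 1 value per gene, so the isoforms of Srebf1 were not told apart, and SREBP proteins and their cleavage were not measured.

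Scap, which carries the SREBPs to the Golgi for cleavage, had 11.8 ± 0.76 FPKM in control, 9.51 ± 1.14 FPKM under OGD (-0.32, adjusted p = 0.0342, not called) and 6.13 ± 0.66 FPKM with A-485. There it fell by 0.62 (SE 0.10, adjusted p = 0.00102 from limma). Its 50 nearest genes had a median of -0.29, and with that median taken off Scap is no longer called (-0.32). Stard4, a carrier that moves sterols between membranes, read 8.36, 8.93 and 8.90 FPKM in control, 8.89, 8.62 and 7.94 FPKM under OGD and 3.92, 3.88 and 3.82 FPKM with A-485, a fall by 1.11 (SE 0.06, adjusted p = 1.02e-06 from limma) after no call under OGD (-0.04).

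The Insig proteins hold Scap and the SREBPs back in the endoplasmic reticulum, and their genes parted under OGD. Insig1, itself a target of SREBP (chr5:28071363-28078662, plus strand, GRCm38), read 19.8, 19.8 and 21.6 FPKM in control, 14.0, 11.6 and 13.0 FPKM under OGD and 6.64, 6.75 and 6.64 FPKM with A-485. Insig2 (chr1:121304353-121332589, minus strand) read 9.83, 9.44 and 9.55 FPKM in control, 15.9, 17.5 and 17.7 FPKM under OGD and 9.87, 9.68 and 9.65 FPKM with A-485. Insig1 went down in each step, by 0.66 (SE 0.07, adjusted p = 7.42e-05 from limma) and by 0.93 (adjusted p = 7.69e-06), with no overlap between groups. Insig2 was the 1 gene called higher under OGD (0.82, SE 0.05, adjusted p = 4.31e-06 from limma) and the 1 gene called in opposite directions in the 2 steps, since it fell by 0.80 with A-485 (adjusted p = 2.80e-06). With both treatments it overlapped control (0.02, adjusted p = 0.773).

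The ratio of Insig1 to Insig2, chosen after the values had been seen, turned over accordingly. It was 2.13 ± 0.13 in control, 0.760 ± 0.11 under OGD and 0.686 ± 0.013 with A-485 (SD, n = 3). The deprived groups lay clear below control and overlapped each other, and a permutation test of 3 against 3 libraries cannot give a p below 0.1.

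**Figure D5:**
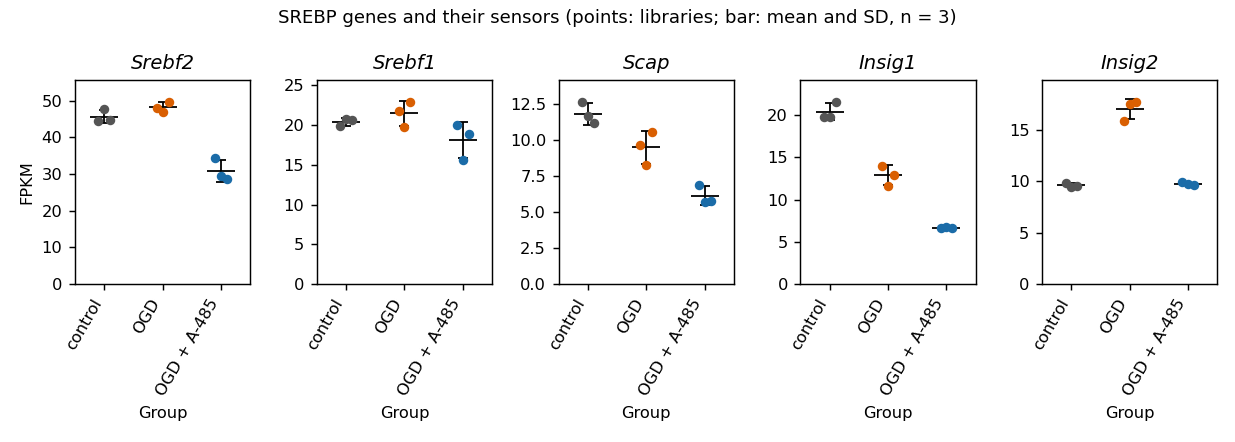
FPKM (y axes, from 0, each panel with its own range) of Srebf2, Srebf1, Scap, Insig1 and Insig2 in each library of the 3 groups, with the mean and SD of 3. Srebf2 and Scap are lowest with A-485, Srebf1 overlaps across groups, Insig1 steps down in both deprived groups, and Insig2 is highest in the 3 OGD libraries.

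Further genes of the pathway were taken from lists made by function. Among 10 tested enzymes of isoprenoid side branches and helpers of sterol synthesis, 2 were called higher and 2 lower under OGD (11.2% and 9.81% of all genes tested). With A-485 against OGD, 1 was called higher and none lower (12.2% and 13.4%). At an adjusted p under 0.05 from limma, 6 were higher there (25.1% of all genes) and 1 lower (24.7%), with a median log2 fold change of 0.31. Tmem97, a sterol-responsive membrane protein, fell by 0.79 under OGD and was 0.57 higher again with A-485, at 58.1 ± 3.67, 33.5 ± 2.44 and 49.6 ± 2.10 FPKM. Cyb5b, an electron donor in the outer mitochondrial membrane, fell by 0.81 under OGD, and Cyb5r3, a cytochrome b5 reductase, rose by 0.56. Against control, 3 were higher and 3 lower with both treatments (17.0% and 16.6% of all genes), led by Por, the reductase that feeds Cyp51 and Sqle with electrons (0.97), Ggps1, which makes geranylgeranyl diphosphate (-0.92), and Cyb5r3 (0.91).

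Of 16 tested genes of other fatty acid synthesis, elongation and NADPH supply, 1 was called higher and 3 lower under OGD (11.2% and 9.81% of all genes tested), 2 higher and 3 lower with A-485 against OGD (12.2% and 13.4%), and 5 higher and 6 lower with both against control (17.0% and 16.6%). These counts rest on 16 genes, and their distance from those shares was not tested.

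Me1, the malic enzyme that makes NADPH for fatty acid synthesis, stood out in that last list. It had 62.2 ± 0.53 FPKM in control, 85.4 ± 2.13 FPKM under OGD and 3.98 ± 0.34 FPKM with A-485, a log2 fold change of -4.39 against OGD (SE 0.06, adjusted p = 1.17e-09 from limma). Elovl7, an elongase, fell by 1.35 with A-485, whereas Idh1, another source of NADPH, fell by 0.66 under OGD and rose by 1.25 with A-485. G6pdx, the entry to the pentose phosphate route, fell by 0.68 under OGD, and Mid1ip1, which promotes the polymerization of acetyl-CoA carboxylase, fell by 0.80. Mlycd, which breaks malonyl-CoA down, rose by 0.78 under OGD.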

How the data were processed

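Control, OGD and OGD + A-485 had 3 libraries each, assigned to groups from the sample labels. The authors filtered reads for adapters, unknown bases and quality, counted reads per gene with featureCounts and deposited FPKM, computed from gene length and read count, for 54532 genes. GRCm38 and mm10 are named in the submitters' processing notes, and the aligner is not given in the sources used here. The deposited FPKM times gene length gave whole reads (tolerance 0.1) for 100% of the values above 0.

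The 16123 genes whose mean reached 0.2 FPKM entered a limma fit (version 3.58.1, R 4.3.3) of log2(FPKM + 0.1), with group means and a trend in the prior variance, and p-values were adjusted over all genes tested by the Benjamini-Hochberg method. The test was checked on simulated data. Summaries used pandas 2.3.3, numpy 2.4.6 and scipy 1.17.1 under Python 3.11.15, and plots used matplotlib 3.10.9. The genes and lists were chosen with earlier results of these data known. Full statistics were given for the up to 4 called genes with the largest change in each branch and comparison and for genes called in opposite directions, and at most 3 called genes per comparison were named from each other list. Genes named beyond that were described because all 35 are accounted for. Faxdc2 was not found under that symbol, and the hypoxia gene Ca9 was matched as Car9. One further list of genes is not reported here. Same-numbered libraries did not deviate together (mean correlation -0.0023 over 9 pairs), so the numbers were not used as pairs.

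Alternatives were pseudocounts of 0.01 and 1, a filter at 1 FPKM, no filter, quantile normalization, scaling to library totals, fits of only the groups compared, a replicate block, limma-voom on recovered reads, no trend in the prior, calls at an adjusted p under 0.05, and each library left out in turn. Removal of the median of the 50 nearest genes was added after the data had been seen.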

Additional observations from a re-analysis of the deposited data

How the results depend on the processing

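Of 2070 values of single genes under the alternatives, 2012 kept their direction and their side of the threshold. Of the others, 29 passed it newly, 9 no longer passed it and 20 changed sign, none of them called. Not all 2070 values could change sign. A different filter, a prior without trend, blocking by replicate number or calling by adjusted p leaves each log2 fold change as it was. The same holds when the group outside a comparison is kept out of the fit or loses a library. In those settings only the call could change, so part of the 2012 kept their direction by construction. Scaled to library totals, Sqle (-0.049) and Msmo1 (-0.011) changed sign under OGD, Acly (-0.064) with A-485 against OGD, and Aacs (-0.026) and Insig2 (-0.095) against control. Acly was also below 0 with quantile normalization (-0.15), limma-voom (-0.016) and neighbours removed (-0.069), and with neighbours removed Elovl5 was 0.21 with A-485 against OGD and Insig2 -0.081 against control. Leaving out single libraries moved Sqle from -0.026 to 0.022, Msmo1 from -0.021 to 0.097, Hmgcs1 from -0.067 to 0.0087, Mvd from -0.12 to 0.016, Stard4 from -0.076 to 0.0043 and Tm7sf2 from -0.22 to 0.00036 under OGD, and Acly from -0.013 to 0.012 with A-485 against OGD. With an adjusted p under 0.05 and no size threshold, the genes higher and lower were 2 and 17 under OGD, and those higher were 2 with A-485 against OGD and 1 against control. With the median of neighbouring genes removed, 1 gene was higher with A-485 against OGD, Acss2 (0.67), and Elovl5 (-0.11) and Scd2 (-0.26) were no longer called against control. At a pseudocount of 1, Acaca (-0.45) and Tm7sf2 (-0.36) were not called with A-485 against OGD, nor Lss (-0.48) and Tm7sf2 (-0.41) against control. With quantile normalization Acaca (-0.49) was not called and Scd2 (-0.52) was, both with A-485 against OGD. Under OGD, Hsd17b7 was called with quantile normalization (-0.56), scaled to library totals (-0.52) and with neighbours removed (-0.61), and Elovl5 scaled to library totals (-0.52), so 9, 10 and 9 genes were lower in these 3 settings.

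The sterol median under OGD was -0.32 at a minimum of 1 FPKM and -0.31 with quantile normalization. With A-485 against OGD it was -0.72 at a pseudocount of 1, -0.95 at a minimum of 1 FPKM and from -1.07 to -0.92 when single libraries were left out, and against control -0.96 at a pseudocount of 1, -1.27 scaled to library totals and -1.39 with neighbours removed. The fatty acid median under OGD was -0.44 with the supply enzymes, -0.59 at a pseudocount of 1, -0.47 without a filter, -0.68 scaled to library totals and -0.53 with neighbours removed. With A-485 against OGD it was -0.15 with the supply enzymes and -0.26 with neighbours removed, and against control -0.62 with the supply enzymes, -0.71 without a filter, -0.998 with quantile normalization and -1.004 scaled to library totals. Where no construction shows the cause (a gene set or filter that changes which genes enter), the cause was not tested. A replicate block left 1 gene higher and 8 lower under OGD and 21 lower with A-485 against OGD, and changed no call in any comparison. Without single libraries, 8 to 10 genes were lower under OGD, 20 to 21 with A-485 against OGD and 26 against control.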

Other observations

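Of 8 genes of glycerolipid and sterol ester synthesis, 1 was called higher under OGD (11.2% of all genes tested). With A-485 against OGD, 2 were higher and 1 lower (12.2% and 13.4%). With both against control, 1 was higher and 2 lower (17.0% and 16.6%). The distance of these counts from those shares was not tested. Lpin1, a phosphatidate phosphatase, went from 2.86 ± 0.12 FPKM in control to 4.73 ± 0.30 under OGD and 2.59 ± 0.08 with A-485, a rise by 0.71 and a fall by 0.84 on the log2 scale. Soat1, which esterifies cholesterol for storage, had 31.7 ± 1.01, 34.6 ± 0.66 and 56.3 ± 0.79 FPKM (0.70 higher with A-485 against OGD, SE 0.04, adjusted p = 8.45e-07 from limma). Dgat1 and Gpam, enzymes of triglyceride synthesis, were lower with both treatments than in control (-0.76 and -0.65).

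Of 6 genes of the LXR receptors and their targets, 2 were called lower under OGD (Abcg1 -0.64, Mylip -0.55), against 9.81% of all genes tested. With A-485 2 were higher than under OGD (12.2% of all genes). With both treatments 3 were called higher than in control and 1, Mylip (-0.75), lower (17.0% and 16.6%). All 3 libraries with both treatments lay above control for 3 of the 6 genes and below it for 3 (31.8% and 32.0% of all genes). Nr1h3, which encodes the receptor LXR-alpha, had 1.51 ± 0.03, 1.13 ± 0.35 and 3.36 ± 0.14 FPKM (1.53 higher with A-485 against OGD, adjusted p = 0.000151 from limma). Abca1, the exporter of cholesterol, had 4.14 ± 0.21, 4.198 ± 0.12 and 8.30 ± 0.30 FPKM (0.97 higher, adjusted p = 2.93e-06).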
